A study of Mus musculus with 6 samples.

Results

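The segments described here are the variable (V) and joining (J) gene segments of the T cell receptor, taken as every gene of the deposited table whose annotated transcript type is TR_V_gene or TR_J_gene. This rule gave 209 of the 27480 genes in the table. They comprised 110 Trav and 51 Traj segments of the alpha chain, 20 Trbv and 13 Trbj segments of the beta chain, 4 Trgv and 4 Trgj segments of the gamma chain, and 5 Trdv and 2 Trdj segments of the delta chain. For 6 of the 209 the table lists the type processed_transcript as well. RNA was measured by bulk sequencing of poly(A) RNA in 6 libraries of mouse OT1 CD8+ T cells, all labelled with the genotype WT and all stimulated with OVA (ovalbumin) peptide for 48 h. In 3 libraries the cells carried the overexpression vector and in the other 3 an overexpression construct for PTMA, the gene of the nuclear protein prothymosin alpha. Values are given for replicates 1, 2 and 3 in this order, first with vector and then with PTMA. The labels do not give the age or number of animals, the recombination genotype of the OT1 mice, the species of the PTMA construct or whether replicates came from separate cultures. The p-values therefore speak only of the spread among these libraries, and that spread may be technical.

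A developing T cell builds each receptor chain by joining a V segment, in beta and delta a D segment, and a J segment, and the joined exon is spliced to a constant (C) region. The V segment encodes most of the antigen-binding domain, the J segment completes it, and the junction between them forms the most variable loop. OT1 mice carry rearranged alpha and beta transgenes from a single CD8+ T cell clone specific for an ovalbumin peptide presented by the class I molecule H-2Kb. That receptor is known for Vα2, the protein name of the Trav14 subgroup, and Vβ5, the protein name of the Trbv12 subgroup, with Traj33 and Trbj2-7 as its joining segments. Transcripts of V and J segments that are not part of the transgenes can come from rearranged endogenous genes or from unrearranged segments. Gene counts do not separate these sources.

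The reference sequences below are those of the V exons with the highest counts, each beside the copy of its subgroup that shows how far the copies can be told apart, and of the leading J segments. They are germline sequences of GRCm38 from GENCODE M21 transcripts, not reads of these libraries. The V exon of Trav14n-1 has 312 bases, of which the last 300 are printed (chr14:53166879-53167178, plus strand, beginning at base 13 of the exon). Capitals in it and in Trav14-1 (chr14:53554259-53554558, plus strand, from base 13 as well) mark the 13 positions at which the exons differ.
Trav14n-1: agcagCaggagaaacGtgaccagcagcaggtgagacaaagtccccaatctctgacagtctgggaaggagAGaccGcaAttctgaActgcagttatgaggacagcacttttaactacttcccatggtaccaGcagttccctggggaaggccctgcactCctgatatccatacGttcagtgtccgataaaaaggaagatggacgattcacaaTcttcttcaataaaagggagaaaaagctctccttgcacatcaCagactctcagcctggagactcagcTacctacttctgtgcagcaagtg
Trav14-1: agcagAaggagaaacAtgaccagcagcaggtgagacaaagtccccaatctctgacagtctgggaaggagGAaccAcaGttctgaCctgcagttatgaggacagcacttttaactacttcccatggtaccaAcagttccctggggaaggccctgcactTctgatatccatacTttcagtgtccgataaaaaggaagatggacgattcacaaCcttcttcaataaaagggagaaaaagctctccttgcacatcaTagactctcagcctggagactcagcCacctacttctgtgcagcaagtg
The V exon of Trav14d-1 (gene at chr14:52855614-52856166) is identical to that of Trav14n-1 (gene at chr14:53166626-53167178), as is the whole annotated transcript of 415 bases. The other 7 Trav14 copies had 10 to 13 substitutions against Trav14n-1, and 3 of them lacked 3 bases as well. With gaps counted as differences, the identity was 95.19% to 96.79%.

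For the beta chain the exon of Trbv12-1 (chr6:41113775-41114067, plus strand, 293 bases) is set beside that of Trbv12-2 (chr6:41119072-41119364, plus strand). Capitals mark the 32 positions at which these exons differ, an identity of 89.08%.
Trbv12-1: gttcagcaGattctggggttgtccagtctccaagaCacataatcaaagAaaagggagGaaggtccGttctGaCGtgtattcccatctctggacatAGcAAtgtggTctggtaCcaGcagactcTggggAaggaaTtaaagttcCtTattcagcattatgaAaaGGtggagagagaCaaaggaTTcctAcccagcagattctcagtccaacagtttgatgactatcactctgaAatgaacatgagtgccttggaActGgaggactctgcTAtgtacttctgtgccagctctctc
Trbv12-2: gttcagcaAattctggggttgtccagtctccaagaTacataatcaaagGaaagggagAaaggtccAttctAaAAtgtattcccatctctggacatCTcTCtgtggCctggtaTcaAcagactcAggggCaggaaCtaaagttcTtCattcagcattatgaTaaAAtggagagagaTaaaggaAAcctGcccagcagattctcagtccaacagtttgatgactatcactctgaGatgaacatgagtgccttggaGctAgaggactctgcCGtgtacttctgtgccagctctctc
The distance between these copies leaves many positions at which a read can be assigned, whereas the Trav14 copies leave few.

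The leading J segments of the beta and the alpha chain, all on the plus strand, are Trbj2-7 (chr6:41543810-41543856), Trbj1-1 (chr6:41533864-41533911), Traj33 (chr14:54185358-54185414) and Traj58 (chr14:54157280-54157342). Capitals mark the 12 bases that encode the conserved J motif, an aromatic residue followed by glycine, any residue and glycine.
Trbj2-7: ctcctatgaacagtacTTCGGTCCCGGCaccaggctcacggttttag
Trbj1-1: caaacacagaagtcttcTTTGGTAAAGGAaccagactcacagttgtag
Traj33: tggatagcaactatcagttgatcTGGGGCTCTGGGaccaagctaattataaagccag
Traj58: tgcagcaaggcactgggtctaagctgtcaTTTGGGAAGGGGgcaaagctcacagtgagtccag
The motif was searched on the coding strand as TTTGGNNNNGGN, TTCGGNNNNGGN or TGGGGNNNNGGN, and 57 of the 70 J segments held it. The middle 60 bases of a transcript held it for 1.17% of 21888 protein-coding genes. Among the J segments printed here only Traj33 opens the motif with tryptophan in place of phenylalanine.

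Total counts ran from 54989408 to 66767589 per library, so that 3 counts, the limit that a count of 0 allows, corresponded to 0.0449 to 0.0546 CPM (counts scaled by library size, with TMM factors in the levels that follow). Ptma, the targeted gene, had 848, 783 and 1145 CPM with vector and 1152, 1346 and 1271 CPM with PTMA, with a log2 fold change of 0.44 (SE 0.13) and an adjusted p of 0.951 by edgeR's quasi-likelihood test. Markers of CD8 T cells were abundant in every library: the summed level of 6 genes was 4056 to 4616 CPM with vector and 4167 to 4481 CPM with PTMA. Cd4, the coreceptor of helper T cells, lay between 0.185 and 1.19 CPM. Of the other CD4 and regulatory T cell markers listed, Foxp3 reached at most 0.2925 CPM. Cd40lg had 1.95 to 3.59 CPM, Zbtb7b 5.84 to 6.80 CPM and Il2ra 76.5 to 86.2 CPM. The part of other cells in these values was not tested.

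The beta chain was dominated by a single V segment. Trbv12-1 (ENSMUSG00000095574), which encodes the Vβ5 part of the OT1 receptor, had 58000, 66666 and 74009 counts with vector and 68914, 73629 and 70272 counts with PTMA. It ranked first among Trbv segments in all 6 libraries, and the groups overlapped. On the scale of library size this was 1087 ± 91.8 CPM (SD, n = 3) with vector and 1085 ± 35.7 CPM (SD, n = 3) with PTMA. The log2 fold change was -0.00 (SE 0.07; edgeR quasi-likelihood, Benjamini-Hochberg adjusted p = 0.997).

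The Trbv12 subgroup held 99.83% ± 0.011 (SD, n = 3) of all Trbv counts with vector and 99.82% ± 0.027 (SD, n = 3) with PTMA. In single libraries the share ran from 99.8% to 99.85%, with 95% Wilson intervals that together span 99.77% to 99.88% and cover counting error only. The 18 Trbv segments outside the subgroup summed to 90, 117 and 128 counts with vector and to 101, 146 and 132 with PTMA. That is 1.83 ± 0.23 CPM and 1.93 ± 0.35 CPM (SD, n = 3 per group), a difference within the spread of the replicates. In bulk RNA of this kind, fewer cells with another receptor and less receptor RNA per cell cannot be told apart.

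Of the 20 Trbv segments 7 passed the filter on low counts. The next after Trbv12-1, by mean count and in every library except PTMA 1, was Trbv31, the only V segment that lies downstream of the beta constant regions and is read from the other strand, with 20, 39 and 44 counts with vector and 16, 42 and 55 with PTMA. Trbv13-2, which encodes Vβ8.2, had 13 to 29 counts with vector and 13 to 27 with PTMA. Trbv12-2 had 9, 7 and 15 counts with vector and 21, 24 and 22 with PTMA. Its groups did not overlap, with the PTMA libraries higher, but the difference did not pass (log2 fold change 1.0, SE 0.56, adjusted p = 0.951 by edgeR quasi-likelihood). Trbv19 went the other way, with 18, 22 and 15 counts with vector against 15, 8 and 15 with PTMA. In CPM these groups did not overlap, at 0.301 ± 0.0524 against 0.194 ± 0.0619 CPM (SD, n = 3 per group). Both rest on at most 24 counts per library.

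The joining segments of the beta chain were ordered alike in every library: Trbj2-7, then Trbj1-1, then Trbj2-1. Trbj2-7, the J segment of the OT1 beta chain, had 3337, 4040 and 4415 counts with vector and 4264, 4448 and 4304 with PTMA. It took 30.1% ± 3.41 (SD, n = 3) of the Trbj counts with vector and 31.2% ± 0.51 (SD, n = 3) with PTMA, so the groups overlapped. Its level was 64.4 ± 6.01 CPM and 66.4 ± 1.44 CPM (SD, n = 3 per group; log2 fold change 0.04, SE 0.09, edgeR adjusted p = 0.968).

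In contrast to the V segments, the counts of the beta chain were not confined to one J segment. Trbj1-1 had 2255, 2711 and 2562 counts with vector and 2660, 2917 and 2816 with PTMA. Trbj2-1 followed with 1776, 2165 and 2173 against 2109, 2330 and 2224, and Trbj1-2 with 1428, 1822 and 1551 against 1577, 1697 and 1764. All 13 Trbj segments were read at 123 counts or more in every library, and the 12 other than Trbj2-7 held 65.99% to 72.16% of the Trbj counts per library. A J segment of about 50 bases is shorter than a sequenced fragment, and a read from a neighbouring intron or exon that overlaps it may be counted for it, so these counts do not number rearrangements. Over the 13 Trbj segments Spearman's rho of the counts between any pair of libraries was 0.98 to 1.0, a description over segments of the same libraries.

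**Figure D1:**
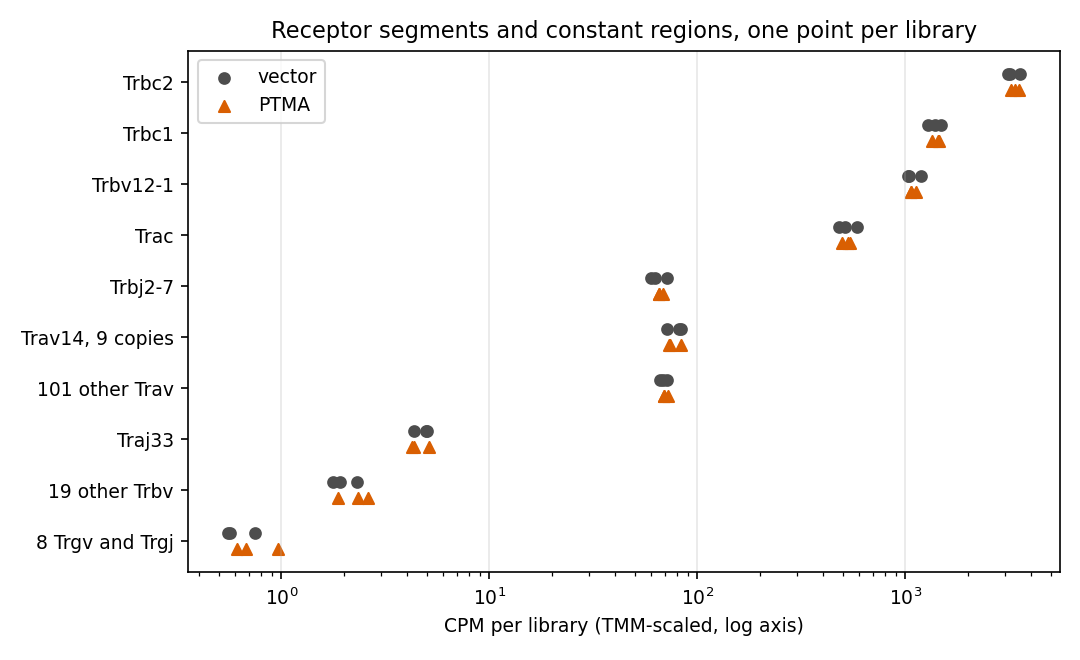
Levels of receptor segments and constant regions (CPM, log axis), one point per library, with vector libraries as grey circles and PTMA libraries as orange triangles. The points of both groups lie together at each level, from about 3119 to 3561 CPM for Trbc2 down to the 8 Trgv and Trgj segments, while Trbv12-1 lies near 1087 CPM and all other Trbv segments near 2 CPM.

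The alpha chain had a leading subgroup as well, but with a wide background of other V segments. The 9 Trav14 copies, which encode Vα2, together had 4662, 4638 and 5048 counts with vector and 5411, 4798 and 4853 with PTMA. They held 53.5% ± 1.19 (SD, n = 3) of the Trav counts with vector and 52.3% ± 2.08 (SD, n = 3) with PTMA. The summed level was 78.8 ± 6.13 CPM and 76.8 ± 5.61 CPM (SD, n = 3 per group), and the groups overlapped on both scales. Per length, the beta transgene's V segment was read far more than the alpha one: the FPKM of Trbv12-1 was 13.2 to 16.3 times the summed FPKM of Trav14 in single libraries. The constant regions showed a smaller ratio, with an FPKM of Trbc2 8.08 to 9.17 times that of Trac. Reads of Trbc1 and Trbc2, which are near-identical, may be split between them in a way the sources used here do not state. How reads shared by identical Trav14 copies were counted is not stated either. If they were counted for each copy, the summed counts, share and FPKM of Trav14 given here are too high.

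Within Trav14 the rows Trav14n-1 and Trav14d-1 held nearly all counts. Trav14n-1 had 2214, 2417 and 3063 counts with vector and 2534, 2272 and 2296 with PTMA. Trav14d-1 had 2140, 1869 and 1652 counts with vector and 2526, 2270 and 2287 with PTMA. Because their annotated transcripts are identical, no read inside them can be assigned to either, and each value depends on how the counting treated shared reads. Whether a shared read was split between the rows or counted for both is not given in the sources used here. In the PTMA libraries the rows differed by 8, 2 and 9 counts, but with vector by 74, 548 and 1411. The share of Trav14n-1 in the sum was 50.8%, 56.4% and 65.0% with vector and 50.1%, 50.0% and 50.1% with PTMA.

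As single rows the pair had log2 fold changes of opposite sign, -0.22 (SE 0.12) for Trav14n-1 and 0.21 (SE 0.14) for Trav14d-1, and neither passed (edgeR quasi-likelihood, adjusted p = 0.951 for each). Their sum was 4354, 4286 and 4715 counts with vector and 5060, 4542 and 4583 with PTMA, or 73.3 ± 6.13 CPM and 72.4 ± 4.80 CPM (SD, n = 3 per group). The other 7 copies added 5.44 ± 0.067 CPM with vector and 4.47 ± 0.81 CPM with PTMA (SD, n = 3 per group), and these ranges overlapped. The largest of them were Trav14-1 with 82 to 108 counts and Trav14-3 with 88 to 133 counts per library.

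Identical copies are frequent in this locus, since a large block of mouse Trav segments exists as repeats marked d and n. Among the 209 segments, 36 fell into 18 pairs with identical V exons, and in 15 pairs the whole annotated transcripts were identical. The counts of a pair differed by at most 5 in 87 of 108 pair and library values. After Trav14n-1 and Trav14d-1, the widest gaps were Trav6d-7 against Trav6n-7, which differed by 43 counts in vector 3, 32 in vector 1 and 31 in PTMA 1, and Trav14d-2 against Trav14n-2, with 44 against 12 counts in vector 3. Summed over the 17 pairs other than Trav14n-1 and Trav14d-1, the absolute differences were 62, 31 and 111 counts with vector and 57, 62 and 39 with PTMA. Vector 3 thus had the largest gap in both sets of pairs. Results for rows of such pairs are uncertain as single rows.

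**Figure D2:**
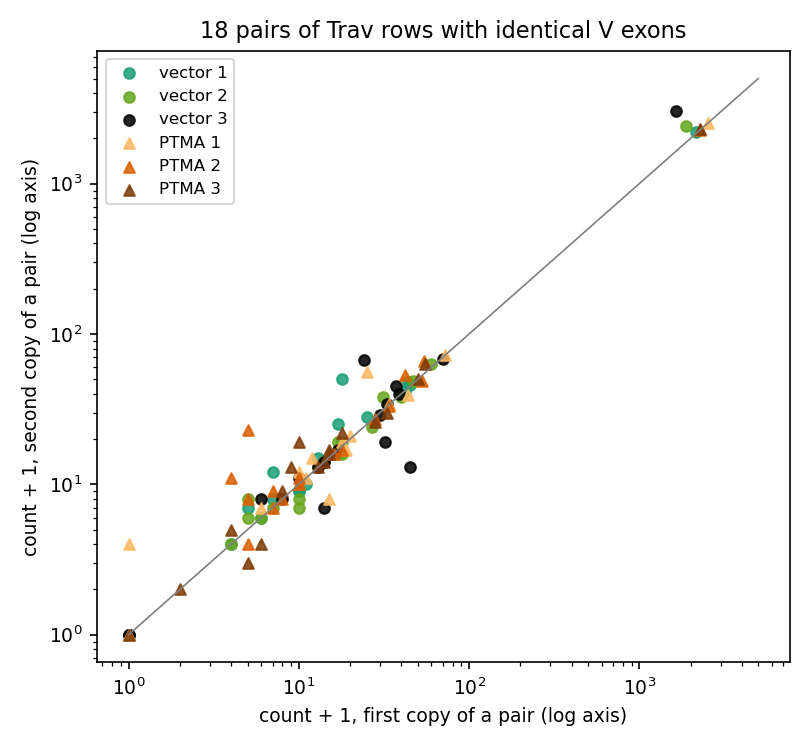
Counts of the first and the second copy (alphabetical order, count + 1, log axes) of 18 pairs of Trav rows with identical V exons, one point per pair and library, with the line of equal counts in grey. The points for vector 2 and vector 3 at the upper right, where Trav14n-1 had 2417 and 3063 counts and Trav14d-1 had 1869 and 1652, lie above the line, whereas those of the 3 PTMA libraries lie on it.

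The 101 Trav segments outside Trav14 summed to 68.5 ± 2.60 CPM with vector and 70.0 ± 1.61 CPM with PTMA (SD, n = 3 per group), and the ranges overlapped. By subgroup, the next after Trav14 was Trav3, with 8.44 ± 1.58 CPM with vector and 8.44 ± 0.71 CPM with PTMA. Trav6 followed with 7.04 ± 0.40 and 7.12 ± 0.25 CPM, and Trav9, Trav12 and Trav13 each lay between 5.53 and 7.13 CPM in every library. No subgroup other than Trav14 exceeded 6.53% of the Trav counts in any library. The highest single segments outside Trav14 were Trav3-3 and Trav17. Trav3-3 had 356, 326 and 505 counts with vector and 377, 418 and 484 with PTMA. Trav17 had 285, 391 and 316 against 397, 415 and 386, and whichever of these was higher came next after the Trav14 pair: Trav3-3 in 4 libraries and Trav17 in vector 2 and PTMA 1.

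Of the 21 Trav subgroups, 3 had PTMA libraries all above the vector libraries and 2 had them all below. For single genes tested in the whole table the shares were 5.39% higher and 5.38% lower. Many subgroups are sums over several segments, so these shares are not a like measure for them. The higher subgroups were Trav19 (3.28 ± 0.10 against 3.76 ± 0.057 CPM), Trav21 (4.63 ± 0.020 against 5.31 ± 0.67 CPM) and Trav11 (0.554 ± 0.150 against 0.923 ± 0.174 CPM, SD, n = 3 per group). Trav4 had 166, 163 and 160 counts with vector and 125, 117 and 142 with PTMA, or 2.69 ± 0.24 against 1.96 ± 0.19 CPM. Trav7 was the other one below, at 5.37 ± 0.29 against 4.83 ± 0.22 CPM. Trav19 and Trav21 each hold a single segment, whose result in the fit is given below. Sums over several segments were not part of the fit and have no test.

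Levels followed position in the locus. The Trav segments spread over the region upstream of Trac on chromosome 14, and among the 44 Trav segments without a d or n mark and outside Trav14, the distance to Trac and the mean FPKM had a Spearman's rho of -0.74, a description across segments that share libraries. The 22 of them nearer to Trac summed to 46.7 CPM over the 6 libraries on average, and the 22 farther away to 9.54 CPM. With the d and n copies included, the rho was -0.71 over 101 segments. The 32 d copies outside Trav14 summed to 6.95 ± 0.43 CPM with vector and 6.41 ± 0.78 CPM with PTMA, and the 25 n copies to 6.64 ± 0.68 and 6.13 ± 0.62 CPM (SD, n = 3 per group). The 44 unmarked segments had 57.2, 53.5 and 53.9 CPM with vector and 57.0, 58.0 and 57.6 CPM with PTMA, so that 1 vector library lay within the range of the PTMA libraries.

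**Figure D3:**
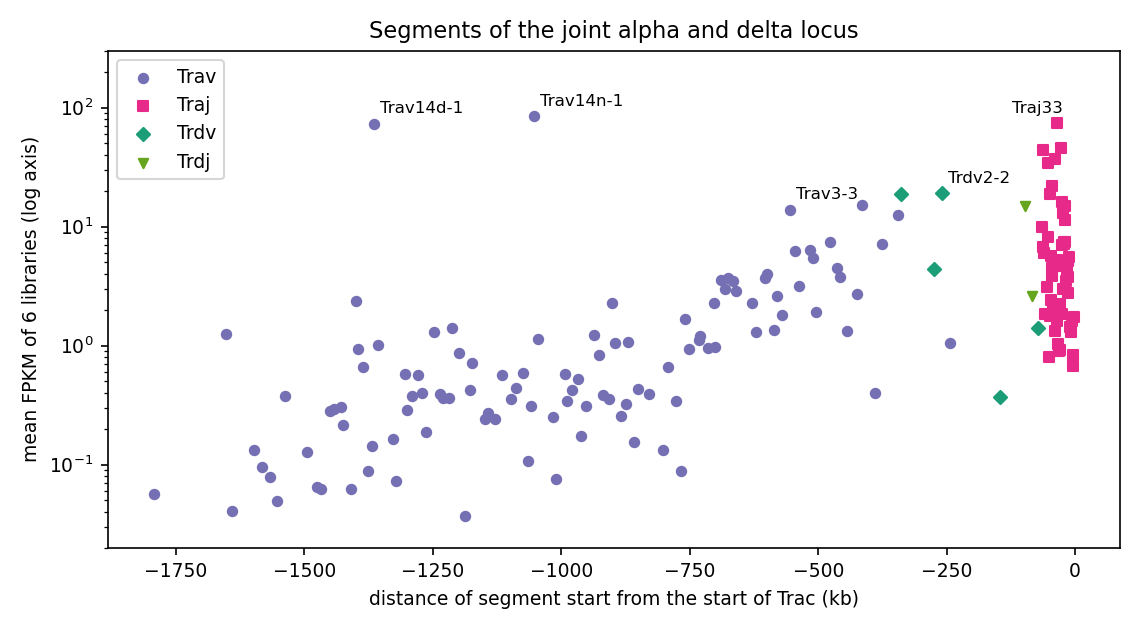
Mean FPKM of 6 libraries (log axis) of each segment of the joint alpha and delta locus against the distance of its start from the start of Trac (kb, upstream negative). Trav14n-1 and Trav14d-1 stand apart far from Trac, at a mean of 84.7 and 73.0 FPKM, while the other Trav segments are higher nearer to Trac, and the Traj segments lie just upstream of it.

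The joining segments of the alpha chain were led by Traj33, which encodes the J part of the OT1 alpha chain. It had 243, 321 and 312 counts with vector and 331, 285 and 280 with PTMA, and ranked first in all 6 libraries. Its share of the Traj counts was 14.6% ± 2.07 (SD, n = 3) with vector and 14.5% ± 0.49 (SD, n = 3) with PTMA. In single libraries the share ran from 12.95% in vector 1 (95% Wilson interval 11.51% to 14.55%) to 16.91% in vector 3 (15.27% to 18.69%). The log2 fold change of its level was -0.06 (SE 0.16, adjusted p = 0.977 by edgeR quasi-likelihood). By FPKM, Trbj2-7 was read 15.28 to 18.95 times as much as Traj33, beside the ratio of 13.2 to 16.3 between Trbv12-1 and Trav14.

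Behind Traj33, Traj58 and Traj27 were read at similar counts. Traj58 had 171, 178 and 182 counts with vector and 222, 209 and 203 with PTMA, without overlap between the groups in CPM (2.91 ± 0.15 against 3.23 ± 0.17, SD, n = 3 per group). The log2 fold change of Traj58 was 0.15 (SE 0.18, edgeR adjusted p = 0.954). Traj27 had 155, 200 and 198 counts against 195, 203 and 191. Each of the 51 Traj segments had at least 1 count in 5 of 6 libraries or more, and 37 passed the filter. Over the 50 Traj segments other than Traj33 the rho between distance to Trac and mean FPKM was 0.29.

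Trav11 and Trav1, V segments known from invariant receptors of other T cell lineages, had at most 36 counts in any library. Invariant natural killer T cells join Trav11 to Traj18, and mucosal-associated invariant T cells join Trav1 to Traj33, the joining segment that the OT1 alpha chain uses as well. Trav11 had 19, 12 and 20 counts with vector and 25, 36 and 31 with PTMA, and Trav11d 19, 13 and 17 against 24, 36 and 29. The groups did not overlap in either, and neither difference passed (log2 fold change 0.73, SE 0.49, and 0.74, SE 0.48; edgeR adjusted p = 0.951 for both). Whether these rows, with their near-equal counts, share reads was not tested. Traj18 had 33, 50 and 25 counts against 42, 31 and 28, with overlapping groups. Trav1 had 0 counts in 5 libraries and 10 in PTMA 2. Zbtb16, the transcription factor that defines these lineages, was at 0 in all vector libraries and in PTMA 3, and at 0.246 and 0.107 CPM in PTMA 1 and 2. Of the other natural killer T cell markers listed, Klrb1c had 10.9, 9.44 and 10.3 CPM with vector and 11.6, 9.90 and 9.44 CPM with PTMA. Il4 reached at most 0.0483 CPM, in vector 3. The part of such cells in these values was not tested.

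Segments of the delta chain were transcribed in every library, and their order did not vary: Trdv2-2, Trdv1, then Trdv2-1. Trdv2-2 had 448, 600 and 502 counts with vector and 599, 540 and 510 with PTMA. Trdv1 had 400, 466 and 428 counts with vector and 426, 526 and 413 with PTMA, and Trdv2-1 had 84, 87 and 106 against 145, 118 and 110. These segments lie among the Trav segments nearest to Trac. The Trdv2 subgroup held 55.8% ± 1.58 of the Trdv counts with vector and 56.5% ± 3.42 (SD, n = 3 per group) with PTMA.

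The joining segments of delta are short and had fewer counts. Trdj1 had 47, 44 and 56 counts against 63, 48 and 64, and Trdj2 had 3 to 17 counts per library. Per length, the mean FPKM over the 6 libraries was 14.8 for Trdj1 and 2.60 for Trdj2, beside 19.1 for Trdv2-2 and 18.7 for Trdv1. All 7 delta segments passed the filter and none passed the test (edgeR quasi-likelihood, lowest adjusted p = 0.952 over the Trdv and 0.975 over the Trdj segments), where 0.0121% of all genes tested were called. The constant region Trdc was at 40.9 ± 4.06 CPM with vector and 40.45 ± 4.004 CPM with PTMA (SD, n = 3 per group). By FPKM, Trac was 50.4 to 57.1 times as high as Trdc.

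The gamma chain was read at low counts in every library. Trgv2, the highest Trgv segment in every library, had 14, 24 and 19 counts with vector and 31, 33 and 16 with PTMA. The 4 Trgv segments summed to 0.485 ± 0.117 and 0.673 ± 0.186 CPM (SD, n = 3 per group), and the groups overlapped. Trgv6 had 0 counts in the 3 vector libraries and in PTMA 1, and 7 and 9 in PTMA 2 and 3. None of the 4 Trgj segments passed the filter, and Trgj4, the highest on average, had 1 to 6 counts per library. Of the gamma delta T cell markers, Sox13 had 2.37, 3.51 and 2.48 CPM with vector and 5.57, 3.86 and 4.09 CPM with PTMA. The 5 markers of that list with a row in the table summed to 41.6 to 49.3 CPM with vector and 41.9 to 50.1 CPM with PTMA, nearly all of it Trdc. Their part in the delta and gamma values was not tested.

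The comparison of PTMA with vector addressed whether receptor transcripts differed between cells with the PTMA construct and cells with the vector. The Ptma row itself was not called by edgeR, so its values do not establish the degree of overexpression. No V or J segment passed the test (edgeR quasi-likelihood with Benjamini-Hochberg adjustment over 16592 genes, lowest adjusted p over the segments = 0.951), and edgeR called 2 of all genes tested, which is 0.0121%. DESeq2 gave an adjusted p for 182 segments and called 0 of them, where it called 47 of 20002 genes (0.235%). Of the 209 segments, 138 passed the filter on low counts and were tested, and 71 were not. At an unadjusted p under 0.05 there were 2 segments, 1.45% of those tested, against 4.65% of all genes tested. These were Trav12d-2 and Trav12n-2, a pair with identical transcripts and so a single measurement. Trav12d-2 had 17, 26 and 38 counts with vector and 10, 9 and 12 with PTMA, and Trav12n-2 18, 23 and 39 against 10, 10 and 12. The groups did not overlap, with log2 fold changes of -1.47 (SE 0.54) and -1.41 (SE 0.54).

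Other segments with the smallest p-values in their direction had few counts or unequal libraries. Trav4-3 had 65, 27 and 49 counts with vector and 33, 22 and 28 with PTMA (log2 fold change -0.89, SE 0.48), and without vector 1 the log2 fold change was -0.51. Trav14d-2 had 9, 9 and 44 counts against 14, 4 and 4 (-1.57, SE 0.88), a difference that rests on vector 3, since without it the log2 fold change was -0.41. Trav12-1 had 64, 81 and 66 counts with vector and 126, 76 and 116 with PTMA (0.49, SE 0.30), with PTMA 2 inside the range of the vector counts. Each of these had an adjusted p of 0.951 by edgeR.

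The groups did not overlap for 8 segments with PTMA higher, 5.80% of the 138, where 5.39% of all genes tested did so. With PTMA lower it was 4 segments, 2.90%, where 5.38% of all genes tested did so. The 8 were Traj58, Traj37, Trav21-dv12, Trav19, Trav7-4, Trav11, Trav11d and Trbv12-2, and the 4 were Trav14-3, Trav12d-2, Trav12n-2 and Trbv19. Among the abundant ones, Trav21-dv12 had 260, 300 and 286 counts with vector and 395, 325 and 321 with PTMA (log2 fold change 0.20, SE 0.16). Trav19 had 184, 218 and 197 counts against 242, 250 and 245 (0.20, SE 0.17). Both shares lay near those of the whole table or under them.

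By sign, 57 of the tested segments had a positive and 81 a negative log2 fold change, with a median of -0.06, where all genes tested had 7761 positive and 8828 negative with a median of -0.01. The Trav segments were 33 positive and 40 negative (median -0.06), the Trbj segments 5 and 8 (median -0.03), and the Traj segments 9 and 28 (median -0.11). The count of negative Traj segments depended on single libraries. Without vector 2 it was 20 of 37 with a median of -0.03, and without vector 3 it was 31 of 37 with a median of -0.33. With PTMA 1 left out the median was -0.19, and with PTMA 2 left out it was -0.05.

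**Figure D4:**
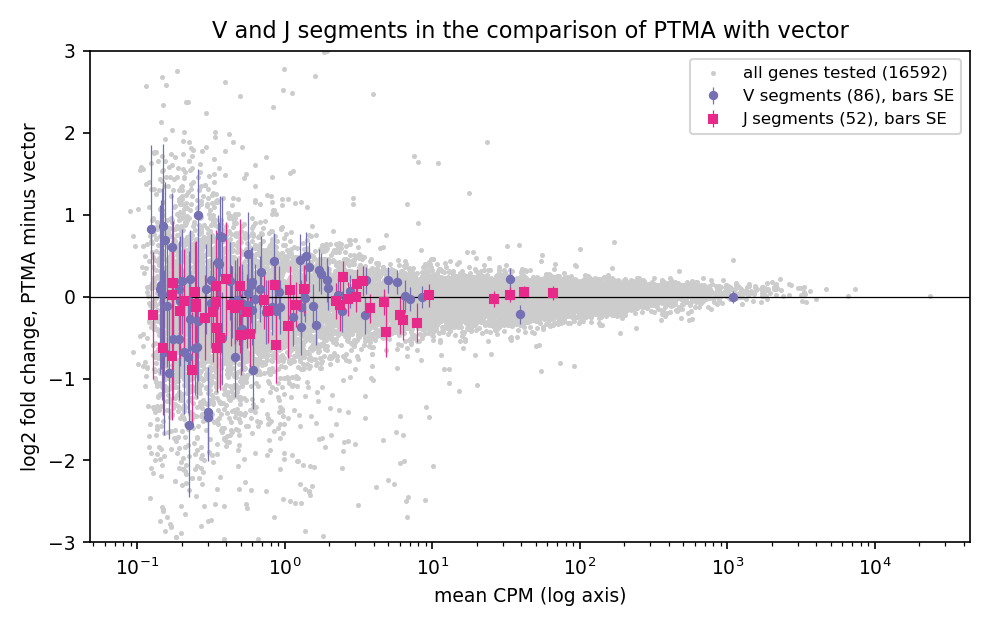
Log2 fold change of PTMA minus vector against mean CPM (log axis) for all 16592 genes tested in grey, with V segments as circles and J segments as squares and bars for the SE; the vertical axis is limited to -3 to 3. The abundant segments, such as Trbv12-1 at about 1087 CPM, lie close to 0, and the segments farthest from 0, such as Trav12d-2 at -1.47, are among those with the lowest levels.

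The receptor chains reach the surface with the CD3 subunits, beside the CD8 coreceptor. Of 14 genes listed for the receptor complex 13 had a row in the table, and none of the 13 passed the test (edgeR quasi-likelihood, Benjamini-Hochberg), with 9 positive and 4 negative log2 fold changes and a median of 0.04. At an unadjusted p under 0.05 by edgeR there were 0 of the 13. Without vector 3 there were 4, with a median of 0.1, and 0 were called. Trac, the alpha constant region, had 511, 479 and 585 CPM with vector and 541, 532 and 497 CPM with PTMA (log2 fold change -0.00, SE 0.08). Trbc2, the larger of the beta constant regions, had 3119, 3199 and 3561 CPM against 3231, 3512 and 3375 CPM (0.03, SE 0.07), and Trbc1 had 1384, 1287 and 1477 CPM against 1346, 1447 and 1431 CPM (0.03, SE 0.07). Within the beta chain the FPKM of Trbv12-1 was 0.405 to 0.431 of that of Trbc1 and Trbc2 together, and within the alpha chain the FPKM of Trav14 was 0.311 to 0.368 of that of Trac.

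The signalling subunits and the coreceptor were abundant in both groups. Cd3e was at 771 ± 68.3 and 708 ± 66.1 CPM, and Cd3g at 952 ± 140 and 989 ± 61.3 CPM (SD, n = 3 per group). Cd247, the zeta chain, had 307, 297 and 314 CPM with vector and 317, 315 and 314 CPM with PTMA. Cd8a, which encodes the coreceptor's alpha chain, had the smallest p-value of the list, with 606, 598 and 638 CPM against 682, 674 and 634 CPM (log2 fold change 0.11, SE 0.06, adjusted p = 0.951 by edgeR). The gamma constant regions Trgc1, Trgc2 and Trgc4 were at most at 1.32 CPM in any library.

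No gene of V(D)J recombination passed the test, and those that act only during recombination were near 0. Rag1, a subunit of the recombinase, had 0 CPM in 5 libraries and 0.031 CPM in vector 2, which is under the counting limit, and Dntt, which adds untemplated bases at the junctions, reached at most 0.196 CPM. Of the 9 genes listed 8 had a row, 6 were tested and none passed (edgeR). The smallest p-value belonged to Lig4, the ligase that seals the ends, with 3.07, 2.48 and 3.67 CPM with vector and 3.37, 3.67 and 4.395 CPM with PTMA (log2 fold change 0.31, SE 0.22). Of 13 listed regulators of the receptor loci none passed (edgeR), with 4 positive and 9 negative and a median of -0.06. Bcl11b, a transcription factor of T cell commitment, had the smallest p-value among them. It had 118, 122 and 89.6 CPM with vector and 89.0, 86.1 and 92.5 CPM with PTMA (log2 fold change -0.30, SE 0.11, adjusted p = 0.951), so vector 3 lay with the PTMA libraries.

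A pattern across libraries, picked out after the values were seen, concerned some J segments rather than the groups. The 50 Traj segments other than Traj33 summed to 29.1, 30.9 and 24.7 CPM with vector and to 29.4, 25.1 and 26.2 CPM with PTMA. Trbj1-4 to Trbj1-7, the downstream part of the first beta J cluster, summed to 31.1, 34.7 and 17.6 CPM and to 25.8, 19.2 and 22.3 CPM. Both sets were thus lowest in vector 3 among the vector libraries and in PTMA 2 among the PTMA libraries. Single segments differed more: Traj57 had 39, 43 and 4 counts with vector and 49, 11 and 42 with PTMA, and Trbj1-7 had 361, 467 and 183 against 305, 224 and 278. Traj57 is among the 6 segments also annotated as processed_transcript.

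The sum of the upstream part of the same cluster varied less and was not lowest in PTMA 2. Trbj1-1 to Trbj1-3 summed to 75.3, 80.7 and 74.4 CPM with vector and to 75.2, 79.2 and 79.5 CPM with PTMA. Within it Trbj1-3 had 534, 677 and 504 counts with vector and 646, 566 and 648 with PTMA, and so was lowest in vector 3 and PTMA 2 like the downstream segments. The 5 segments of the second cluster other than Trbj2-7 summed to 43.8, 46.8 and 46.1 CPM and to 44.2, 48.0 and 45.9 CPM. Of the 36 tested Traj segments other than Traj33, 13 (36.1%) were lowest in both vector 3 and PTMA 2 within their groups, and of the 7 Trbj1 segments 5 (71.4%) were. Of the 6 Trbj2 segments 1 (16.7%) was. For all genes tested the share was 20.1%, and for the 73 tested Trav segments 8.22%.

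Being lowest in both vector 3 and PTMA 2 within the groups was not confined to J segments, since 20.1% of all genes tested were so. The noncoding RNAs that follow are picked examples of it, and a link with the J segments was not tested. Malat1, a nuclear noncoding RNA, had 629, 763 and 430 CPM with vector and 619, 396 and 474 CPM with PTMA. Kcnq1ot1, a long noncoding RNA retained on chromatin, had 53.1, 68.7 and 32.2 CPM against 52.4, 39.9 and 55.1 CPM. The 13 mitochondrially encoded mRNAs summed to 15930, 15340 and 21120 CPM with vector and to 15740, 19680 and 19490 CPM with PTMA, highest in vector 3 and PTMA 2 within their groups. The part of RNA composition in the J segment values was not tested. For Trbj1-4 to Trbj1-7 the log2 fold changes of PTMA minus vector were all 4 negative, from -0.43 (SE 0.31) for Trbj1-7 to -0.23 (SE 0.23) for Trbj1-4, with a median of -0.30, and none passed (edgeR). Without vector 3 the median was -0.53 and without vector 2 it was -0.10.

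**Figure D5:**
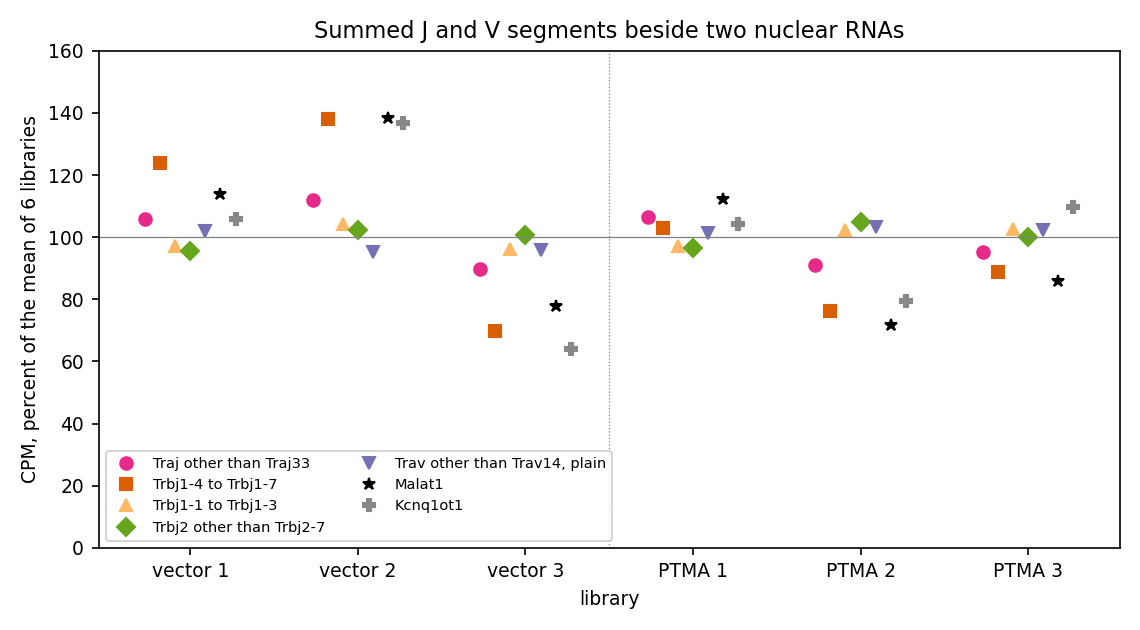
Summed CPM of sets of segments and of Malat1 and Kcnq1ot1 in each library, as a percent of the set's mean over the 6 libraries. In vector 3 the sets Trbj1-4 to Trbj1-7 (17.6 CPM) and Traj other than Traj33 (24.7 CPM) lie under their means together with Malat1 and Kcnq1ot1, while Trbj1-1 to Trbj1-3, the other Trbj2 and the Trav segments lie near 100 in every library.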

How the data were processed

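RNA of 6 libraries of OT1 CD8+ T cells, 3 per group, was compared. The authors deposited 1 table of 27480 genes, whose whole-number counts are raw, per the file headers. Its other deposited columns are FPKM, which divide the fragments of a gene by its length and the library's size, per the file headers. The submitters' processing notes list HISAT2 2.0, StringTie 1.3.0, Bowtie 0.12.2 and mm8 without saying what each served for. Which program counted the reads, whether it used strand and how it treated reads that match several genes is not given in the sources used here. Coordinates are those of GRCm38: all 209 segments have the same start and end in GENCODE M21. The protocol for extraction mentions an adipose type, although the samples are labelled CD8+ T cells.

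All genes were fitted together with edgeR 4.0.16 (R 4.3.3): TMM scaling, filterByExpr (minimum count 10) and a quasi-likelihood test for the group term, without covariates. Benjamini-Hochberg adjustment ran over 16592 genes, with a threshold of 0.05. Log2 fold changes are PTMA minus vector. Shares are of the counts of a locus, with Wilson 95% intervals in single libraries. These and the limit of 3 counts cover counting error only. Summed levels and shares were not tested. V subgroups are the symbol up to the first hyphen, with a d or n mark of a copy dropped. V exons were compared by pairwise alignment of GENCODE M21 transcripts (Biopython 1.88). The segments named are the 3 V and 3 J segments of each locus with the highest mean count and up to 5 per direction with the smallest p-value, beside members named in a count or picked out after their values were seen. The segments and the lists of receptor, recombination, regulator and marker genes were chosen with earlier results of these data known. No library duplicated another: the chi-square per gene was 17.7 to 84.8 over the 15 pairs of libraries. The procedure was tested on simulated data. Alternatives were other scalings, all genes without the filter, the replicate number as a block, each library left out in turn, DESeq2 1.42.0, and limma 3.58.1 on log2(FPKM + 1) or log2(FPKM + 0.1) for genes whose mean FPKM was 1 or more, or for all genes. Same-numbered libraries did not vary together, so the fit has no block.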

Additional observations from a re-analysis of the deposited data

How the results depend on the processing

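No V or J segment was called under any of the 14 alternatives, which tested 110 to 209 segments and left 0 to 14 of them at an unadjusted p under 0.05. With the replicate number as a block in edgeR, 0 segments were called and 0 had an unadjusted p under 0.05. The numbers do not pair the libraries: the correlations of same-numbered vector and PTMA libraries were -0.12, -0.16 and -0.12. No gene of the receptor complex was called under any of the 11 alternatives run for it. Of 39 named segments and receptor genes tested, 17 changed sign in at least 1 of 11 alternatives, 8 of them outside those that leave out a library, and none was called in any (lowest adjusted p 0.243). The shares depended on how copies were counted. Trav14 held 52.16% of the Trav signal in the vector libraries by FPKM. With V pseudogenes included it held 49.77% in the vector and 48.84% in the PTMA libraries. Trav14n-1 alone held 28.58% and 24.65%. With identical V exons counted once, a choice made after seeing the data, Trav14 held 42.53% and 38.12%. These last values and those of Trav14n-1 alone depend on how counts fell between Trav14n-1 and Trav14d-1, which was uneven in vector 2 and 3. The summed level of that pair overlapped between the groups, at 73.35 ± 6.13 CPM with vector and 72.36 ± 4.80 CPM with PTMA (SD, n = 3 per group). Trbv12 moved to 99.85% by FPKM in the vector libraries, and to 99.81% and 99.79% with pseudogenes. Trbv12-1 alone held 99.82% and 99.79%. By FPKM, Traj33 held 15.5% and Trbj2-7 32.24% in the PTMA libraries. Trdv2 held 52.93% in the vector libraries by FPKM, and Trdv2-2 alone 47.3% and 46.12%. The ratio of PTMA to vector for the V segments outside the leading subgroup stayed within 0.952 to 1.16 for Tra, Trb and Trd under the alternatives run. At least 1 count was found for 185 segments per vector and 189 per PTMA library on average, and at least 10 counts for 132 and 134. The power to detect a difference in segments with few counts was not measured.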

Other observations

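Receptor genes outside the V and J segments of the annotation were also read in every library. The 13 V pseudogenes summed to 11.5, 11.8 and 10.4 CPM with vector and to 11.3, 9.64 and 11.0 CPM with PTMA. The 10 J pseudogenes summed to 4.15 ± 0.98 CPM with vector and 4.04 ± 0.32 CPM with PTMA, and the 3 D segments to 4.19 ± 0.084 and 4.29 ± 0.20 CPM (SD, n = 3 per group). The groups overlapped for each of these sums. Nearly all V pseudogene reads came from the alpha locus, whose 8 pseudogenes had 10.9 ± 0.66 CPM with vector and 10.3 ± 0.80 CPM with PTMA. The 4 beta V pseudogenes summed to 0.253 ± 0.080 and 0.316 ± 0.074 CPM (SD, n = 3 per group). The 18 Trbv segments outside Trbv12, a larger set, summed to 1.83 ± 0.23 and 1.93 ± 0.35 CPM (SD, n = 3 per group).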
